A study of Mus musculus with 12 samples.

Results

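Caveolae are small flask-shaped pockets of the plasma membrane, and the genes described here are 6 that encode their coat and neck: the caveolins Cav1 and Cav2, the cavins Cavin1, Cavin2 and Cavin3, and the neck ATPase Ehd2. They were chosen by symbol, through the Ensembl identifiers of the deposited count table, and all 6 were found among its 53431 gene identifiers. All 6 were also among the 15968 genes left by the filter on low counts, so none was lost to it.

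RNA was sequenced from adipose tissue of 12 mouse samples on a mixed C57BL/6 x 129/SvJ background, 4 in each of 3 groups. The first group was labelled Bbs2-/- and received Genz-667161, an inhibitor of glucosylceramide synthase (GCSi), mixed into the feed at 0.033% by weight between 2 and 6 months of age. The second was labelled Bbs2-/- and untreated, and the third was WT and untreated. The BBSome, of which the Bbs2 protein is a subunit, carries membrane proteins through the primary cilium, and glucosylceramide synthase makes the first glycosphingolipid from ceramide. All tissue was taken at 6 months, and the labels give neither the fat depot nor the sex, nor whether each library came from its own mouse, so p-values reflect the spread between libraries, which may be technical. The groups are called Bbs2-/- GCSi, Bbs2-/- and WT as they are labelled, and the comparisons ask how the labelled genotype and the inhibitor went with the levels of the caveola genes.

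A caveola forms when caveolin oligomers, which carry cholesterol and sphingolipids, are coated from the cytosol by cavin trimers, while EHD2 rings the neck and holds the pocket at the surface. Adipocytes and endothelial cells are among the cells richest in caveolae, and in adipocytes the pockets buffer membrane tension as the lipid droplet grows and hold receptors and lipid transporters. People and mice without caveolin-1 or cavin-1 have reduced fat stores.

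Cav2 and Cav1 lie side by side on chromosome 6 on the plus strand, Cav2 (ENSMUSG00000000058.6) at chr6:17281185-17289115 and Cav1 (ENSMUSG00000007655.16) at chr6:17306335-17341452, with 17219 bases between them (mm10). Cavin1 (ENSMUSG00000004044.9) lies at chr11:100956733-100970887 on the minus strand, and Cavin2 (ENSMUSG00000045954.7) at chr1:51289126-51302960 on the plus strand. Cavin3 (ENSMUSG00000037060.3) at chr7:105480083-105482300 and Ehd2 (ENSMUSG00000074364.6) at chr7:15946958-15967567 are both on the minus strand. At its 5′ end, 374 exonic bases of Cavin3 overlap Gm45667 on the opposite strand, whose own counts were 14 to 66 per library, against 3860 to 7648 for Cavin3. Antisense Gm15581 spans Cav1 and Cav2 without overlap of exons and had 0 to 2 counts, and antisense 9330175M20Rik, which spans Cavin2 in the same way, had 0 to 5.

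Promoter windows (250 bases before to 50 after the start) were available from RefSeq, on GRCm38.p6, for 5 of the 6 genes, and those of the neighbours Cav2 and Cav1 and of Cavin2 are shown because Cav2 and Cav1 lie side by side and Cavin2 has the lowest share of G and C. Each is printed 5′ to 3′ on the gene's strand, and capitals mark the letters GGGCGG or CCAAT read on either strand (CCGCCC and ATTGG on the other strand).
Cav2, chr6:17280935-17281234, plus strand: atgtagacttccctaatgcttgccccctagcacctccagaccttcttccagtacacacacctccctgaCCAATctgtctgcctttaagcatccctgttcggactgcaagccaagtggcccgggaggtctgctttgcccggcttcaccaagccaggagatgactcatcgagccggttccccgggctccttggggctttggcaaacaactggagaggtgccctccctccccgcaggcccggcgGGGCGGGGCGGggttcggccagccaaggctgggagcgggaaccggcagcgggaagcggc
Cav1, chr6:17306085-17306384, plus strand: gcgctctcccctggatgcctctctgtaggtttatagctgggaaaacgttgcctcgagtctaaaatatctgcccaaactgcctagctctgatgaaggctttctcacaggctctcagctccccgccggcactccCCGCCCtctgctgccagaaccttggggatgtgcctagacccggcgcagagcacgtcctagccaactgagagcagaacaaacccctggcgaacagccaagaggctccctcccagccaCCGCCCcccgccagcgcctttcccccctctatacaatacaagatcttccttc
Cavin2, chr1:51288876-51289175, plus strand: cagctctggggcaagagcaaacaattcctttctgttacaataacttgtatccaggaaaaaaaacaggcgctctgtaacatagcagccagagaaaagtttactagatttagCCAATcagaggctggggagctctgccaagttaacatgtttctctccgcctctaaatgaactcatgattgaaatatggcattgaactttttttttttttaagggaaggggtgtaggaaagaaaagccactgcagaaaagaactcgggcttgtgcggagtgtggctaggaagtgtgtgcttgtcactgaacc
The Cav2 window holds 2 overlapping GGGCGG matches beside the start and 1 CCAAT, and 64.3% of its bases are G or C. In the Cav1 window shown, at the 5′ end of the gene, there are 2 GGGCGG matches, both on the opposite strand, 1 TATAAA and no CCAAT, at 59.3% G or C. A second RefSeq start of Cav1, at base 17307640, gave a window with none of these 3 motifs, at 62.3% G or C. Cavin2 has 1 CCAAT and no GGGCGG, at 43.3% G or C, the lowest of the 7 windows of the 5 genes. Cavin1 had 1 match of GGGCGG, 1 of CCAAT and no TATAAA in each of its windows, at 66.7% and 67.0% G or C. Ehd2 had 2 matches of GGGCGG and 1 of CCAAT, at 62.0%. Of 32851 promoters in the same table, 35.7% hold GGGCGG, 37.4% CCAAT and 13.6% TATAAA on either strand. The letters AGGTCA, present in 16.3% of all promoters, were in none of the 7 windows, and CANNTG, present in 72.3%, was in those of Cav1, Cav2 and Ehd2. These are matches of letters only.

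Library totals ran between 16317865 and 20224200 estimated counts. The check of the labels went against the genotype: Bbs2 averaged 61.5 ± 5.3 CPM (counts scaled to a common library size) in libraries labelled Bbs2-/- GCSi and 61.9 ± 9.41 in libraries labelled Bbs2-/-, against 12.5 ± 0.267 in libraries labelled WT (SD, n = 4 each). The log2 fold change was 2.31 for Bbs2-/- against WT (edgeR quasi-likelihood test with Benjamini-Hochberg adjustment over all genes tested, adjusted p = 1.62e-06). The total for a gene does not tell which exons were covered, so the groups are named by label throughout. WT 1 and WT 4 and Bbs2-/- GCSi 1 and 3 held 48, 164, 154 and 140 counts of Foxj1, a ciliated epithelium gene that had at most 2 counts in each other library, and WT 1 also held 19876 counts of Crisp1, an epididymal gene. WT 2 and WT 3 carry library names of another type than the rest. Fabp4, the fatty acid binding protein of adipocytes, ranked 1 or 2 in level among 18810 genes in every group. That rank alone does not show how much of the tissue was adipocyte.

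Per length, Cav1 was among the most abundant transcripts of the tissue, and the other members followed in much the same order in each group. On the deposited log2 FPKM scale, Cav1 stood at 10.9 in Bbs2-/- GCSi, 9.84 in Bbs2-/- and 10.9 in WT libraries, which ranked it 26, 46 and 28 from the top of 18810 genes. Cavin1 followed at 9.32 in Bbs2-/- GCSi, 8.62 in Bbs2-/- and 9.43 in WT libraries. Their ranges did not meet in any group, so the lead caveolin was above the lead cavin in each. Ehd2 (8.17 in Bbs2-/- GCSi, 7.20 in Bbs2-/- and 8.31 in WT libraries) and Cav2 (8.45 in Bbs2-/- GCSi, 7.38 in Bbs2-/- and 8.22 in WT libraries) came next, with ranges that overlapped each other in every group. Cavin2 stood at 7.76 in Bbs2-/- GCSi, 7.11 in Bbs2-/- and 7.99 in WT libraries. Cavin3 stood at 7.76 in Bbs2-/- GCSi, 7.02 in Bbs2-/- and 7.75 in WT libraries, and Cavin2 and Cavin3 overlapped each other in every group. Cavin2 also overlapped Ehd2 in Bbs2-/- and in WT libraries, and Cav2 in Bbs2-/- libraries. Cavin3 overlapped Ehd2 in Bbs2-/- GCSi and in Bbs2-/- libraries.

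All 6 caveola genes were lower in libraries labelled Bbs2-/- than in libraries labelled WT, and all 6 were higher in libraries labelled Bbs2-/- GCSi than in libraries labelled Bbs2-/-. Summed, they made up 9631 ± 993 CPM in Bbs2-/- GCSi, 5229 ± 251 in Bbs2-/- and 9682 ± 1020.1 in WT libraries (SD, n = 4 each). In Bbs2-/- against WT 6 of 6 fell, where 39.2% of all genes tested changed and 19.7% fell. In Bbs2-/- GCSi against Bbs2-/- 6 of 6 rose, where 37.2% of all genes changed and 18.5% rose. The median log2 fold change of the 6 was -0.78 for Bbs2-/- against WT, beside -0.02 over all genes, and 0.81 for Bbs2-/- GCSi against Bbs2-/-, beside 0.03 over all genes. In each comparison the groups did not overlap for 6 of 6 members, which 17.2% of all genes showed as lower in Bbs2-/- than WT and 19.0% as higher in Bbs2-/- GCSi than Bbs2-/-. These comparisons share the untreated Bbs2-/- libraries, so their opposite directions are not independent of each other. In bulk tissue, fewer adipocytes and less of these RNAs per adipocyte cannot be told apart.

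**Figure D1:**
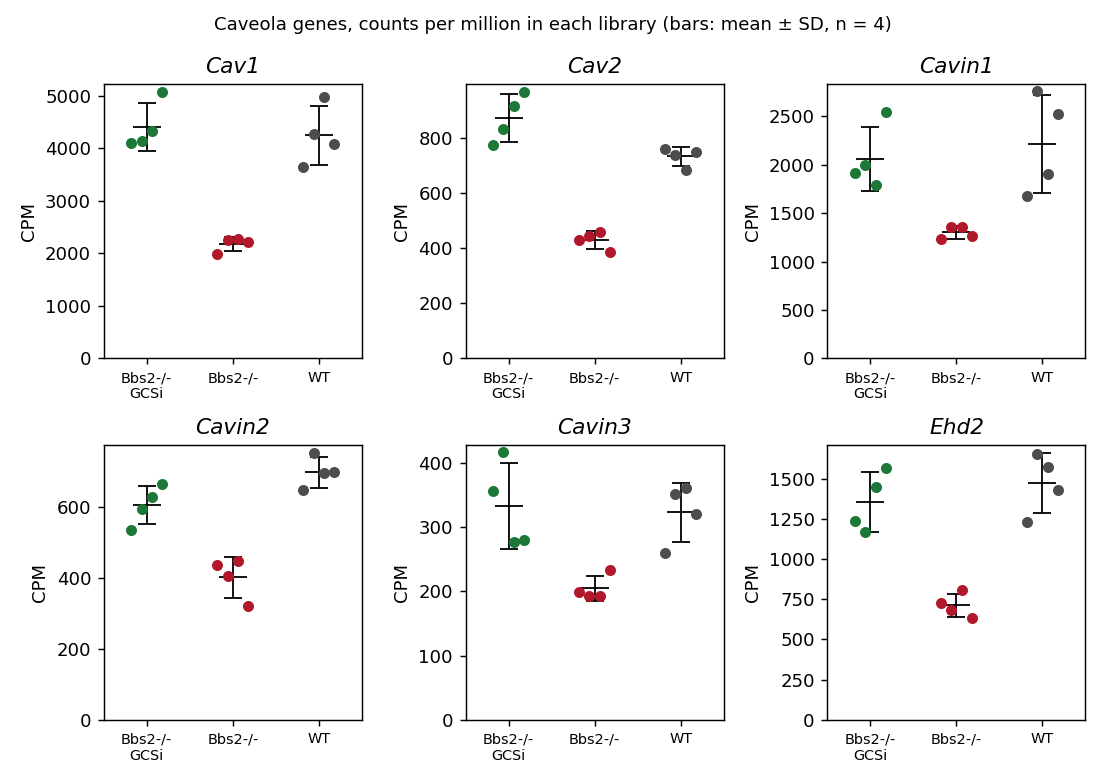
CPM (vertical axis, starting at 0) of the 6 caveola genes in each library, by labelled group, with bars for mean ± SD (n = 4). In every panel the 4 Bbs2-/- libraries lie below the 4 libraries of each other group, as for Cav1 at 1985 to 2273 CPM.

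Cav1 encodes caveolin-1, the main structural protein of caveolae outside striated muscle. It had 4094, 4131, 4325 and 5072 CPM in libraries labelled Bbs2-/- GCSi 1 to 4, 1985, 2247, 2273 and 2214 CPM in libraries labelled Bbs2-/- and 3640, 4260.5, 4976 and 4084 CPM in libraries labelled WT. The Bbs2-/- libraries lay closest together and under both other groups, which overlapped each other. Cav1 fell in Bbs2-/- against WT with a log2 fold change of -0.96 (SE 0.13, 95% interval -1.24 to -0.68, edgeR adjusted p = 0.000236), a level 1.95-fold lower. It rose in Bbs2-/- GCSi against Bbs2-/- with a log2 fold change of 1.02 (SE 0.13, interval 0.74 to 1.29, edgeR adjusted p = 0.000183), a level 2.02-fold higher. Of all genes tested, 9.97% had a lower log2 fold change in the genotype comparison and 9.23% had a higher one in the treatment comparison.

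Cav2 encodes caveolin-2, which needs caveolin-1 to reach the plasma membrane and joins it in mixed oligomers. Its level was 774, 832, 915 and 967 CPM in libraries labelled Bbs2-/- GCSi, 429.8, 446, 459.6 and 386 CPM in libraries labelled Bbs2-/- and 761, 738, 683 and 749.8 CPM in libraries labelled WT. No group overlapped another, and the Bbs2-/- GCSi libraries were the highest of the 3. The log2 fold change was -0.77 for Bbs2-/- against WT (SE 0.10, interval -0.98 to -0.55, edgeR adjusted p = 0.000207). For Bbs2-/- GCSi against Bbs2-/- it was 1.02 (SE 0.10, interval 0.80 to 1.24, edgeR adjusted p = 5.88e-05). Both caveolins thus passed the test in both comparisons.

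Cavin1 encodes cavin-1, without which caveolin does not form caveolae. It had 1912, 2000.1, 1792 and 2542 CPM in libraries labelled Bbs2-/- GCSi, 1228, 1355, 1359.6 and 1263 CPM in libraries labelled Bbs2-/- and 1678, 2761, 1907 and 2519 CPM in libraries labelled WT. The WT libraries were spread the widest, with WT 2 at 1.65 times WT 1, while the Bbs2-/- libraries lay within 1.11 times of each other. Cavin1 fell in Bbs2-/- against WT (log2 fold change -0.77, SE 0.17, interval -1.13 to -0.41, edgeR adjusted p = 0.00364). With the inhibitor it rose, in Bbs2-/- GCSi against Bbs2-/- (log2 fold change 0.66, SE 0.17, interval 0.30 to 1.03, edgeR adjusted p = 0.00858).

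Cavin2 encodes cavin-2, which joins cavin-1 in the coat and helps to curve the membrane. It had 535, 594, 627 and 664 CPM in libraries labelled Bbs2-/- GCSi, 435, 404, 446 and 319 CPM in libraries labelled Bbs2-/- and 646, 752, 695 and 697 CPM in libraries labelled WT. Bbs2-/- overlapped neither other group, and only Bbs2-/- GCSi 4 reached into the range of the WT libraries. The gene fell in Bbs2-/- against WT (log2 fold change -0.80, SE 0.12, interval -1.05 to -0.54, edgeR adjusted p = 0.000411). It rose in Bbs2-/- GCSi against Bbs2-/- by the smallest of the 6 fold changes (log2 fold change 0.59, SE 0.12, interval 0.34 to 0.85, edgeR adjusted p = 0.00228).

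Cavin3 encodes cavin-3, which also binds cavin-1 and takes part in the traffic of caveolae along microtubules. Its level was 357, 416, 277 and 279.9 CPM in libraries labelled Bbs2-/- GCSi, 199, 193, 193 and 233 CPM in libraries labelled Bbs2-/- and 259, 352, 361 and 319.9 CPM in libraries labelled WT. The Bbs2-/- libraries were below all others, though Bbs2-/- 4 came near WT 1. It fell in Bbs2-/- against WT (log2 fold change -0.66, SE 0.15, interval -0.99 to -0.33, edgeR adjusted p = 0.0047), the smallest fold change of the 6 there. The call was lost without WT 2 and WT 3 together, which also makes the WT group smaller (log2 fold change -0.49, edgeR adjusted p = 0.0824). With any 1 library left out it held (largest edgeR adjusted p = 0.0231). In Bbs2-/- GCSi against Bbs2-/- Cavin3 rose (log2 fold change 0.70, SE 0.15, interval 0.38 to 1.03, edgeR adjusted p = 0.00352).

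Ehd2 encodes an ATPase that forms a ring at the caveola neck and keeps the pocket from detaching. It had 1234, 1167, 1451 and 1565 CPM in libraries labelled Bbs2-/- GCSi, 728, 685, 804 and 630.0 CPM in libraries labelled Bbs2-/- and 1233, 1655, 1573 and 1429 CPM in libraries labelled WT. The highest Bbs2-/- library was below the lowest of either other group, and those groups overlapped each other. Ehd2 had the largest fold change of the 6 in Bbs2-/- against WT (log2 fold change -1.05, SE 0.13, interval -1.34 to -0.76, edgeR adjusted p = 0.000202), and 8.67% of all genes had a lower one. Ehd2 rose in Bbs2-/- GCSi against Bbs2-/- (log2 fold change 0.93, SE 0.13, interval 0.64 to 1.22, edgeR adjusted p = 0.000377).

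Without the 4 libraries that held Foxj1 counts, all 6 genes still passed in both comparisons. Their log2 fold changes then ran from -1.19 for Ehd2 to -0.73 for Cav2 in Bbs2-/- against WT, and from 0.67 for Cavin2 to 1.09 for Cav1 in Bbs2-/- GCSi against Bbs2-/-. Without WT 2 and WT 3, those for Bbs2-/- against WT ran from -0.89 for Ehd2 to -0.49 for Cavin3.

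Set directly against WT, the Bbs2-/- GCSi libraries gave 0 of 6 members past the edgeR threshold, where 0.257% of all genes changed. DESeq2 also called 0, and 1 of the 6, Cav2, had an unadjusted edgeR p under 0.05 (adjusted p = 0.393). Cav2 averaged 872 ± 86.0 CPM in Bbs2-/- GCSi and 733 ± 34.8 CPM in WT libraries (SD, n = 4 each), a log2 fold change of 0.25 with an interval of 0.04 to 0.47. It was the 1 member whose 4 Bbs2-/- GCSi libraries lay above all 4 WT libraries, which 2.68% of all genes also did. For the other members the intervals spanned 0 and bound how far the groups could differ: -0.22 to 0.33 for Cav1, -0.47 to 0.26 for Cavin1, -0.46 to 0.05 for Cavin2, -0.28 to 0.37 for Cavin3 and -0.41 to 0.17 for Ehd2. The test thus leaves room for each of these members to be lower or higher in Bbs2-/- GCSi libraries, as far as its interval reaches. The median log2 fold change of the 6 was -0.03, beside -0.02 over all genes. This comparison shares the Bbs2-/- GCSi and WT libraries with the others.

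**Figure D2:**
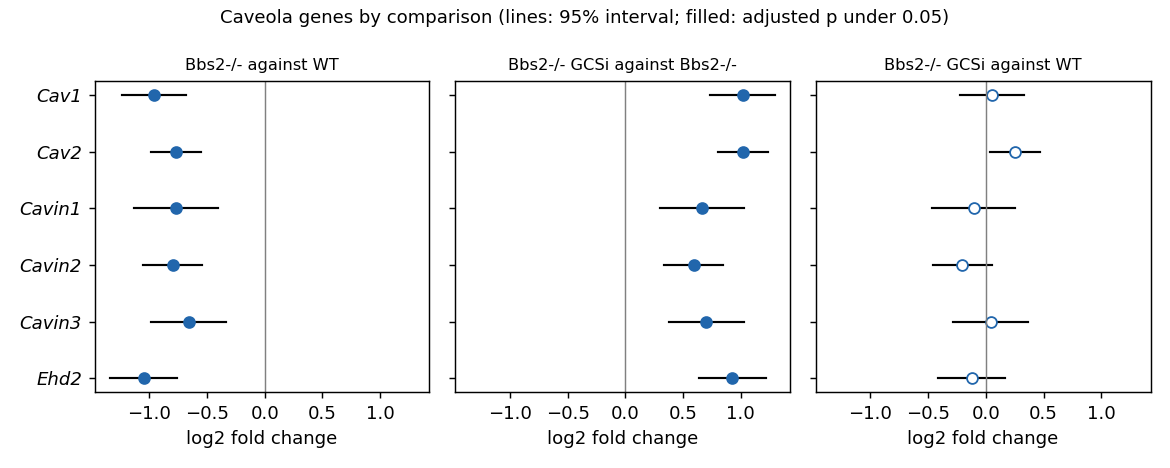
Log2 fold change of each caveola gene (horizontal axis) in 3 comparisons, with lines for the 95% interval and filled points for an edgeR adjusted p under 0.05. The 6 filled points run from -1.05 to -0.66 for Bbs2-/- against WT and from 0.59 to 1.02 for Bbs2-/- GCSi against Bbs2-/-, and the 6 points for Bbs2-/- GCSi against WT are open.

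Because the coat is built from caveolins and cavins together, 5 ratios between members were also compared. As a log2 ratio of CPM, Cavin1 over Cav1 lay between -1.27 and -0.996 in Bbs2-/- GCSi, between -0.81 and -0.69 in Bbs2-/- and between -1.38 and -0.63 in WT libraries. The Bbs2-/- GCSi and Bbs2-/- groups did not overlap, and the WT libraries covered both. The difference of -0.36 between Bbs2-/- GCSi and Bbs2-/- had a two-sided exact permutation p of 0.0286, the smallest that 4 against 4 libraries allow, and 0.429 after Benjamini-Hochberg adjustment over the 15 ratio tests. Ehd2 over Cav1 differed by -0.18 between Bbs2-/- GCSi and WT (exact permutation p = 0.0571, adjusted p = 0.429). None of the 15 tests passed after adjustment, a level that this number of libraries could not reach for a single ratio, and 1 had an unadjusted p under 0.05. Cav2 over Cav1 averaged -2.34 ± 0.08 in Bbs2-/- GCSi, -2.34 ± 0.13 in Bbs2-/- and -2.52 ± 0.25 in WT libraries (SD, n = 4 each).

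**Figure D3:**
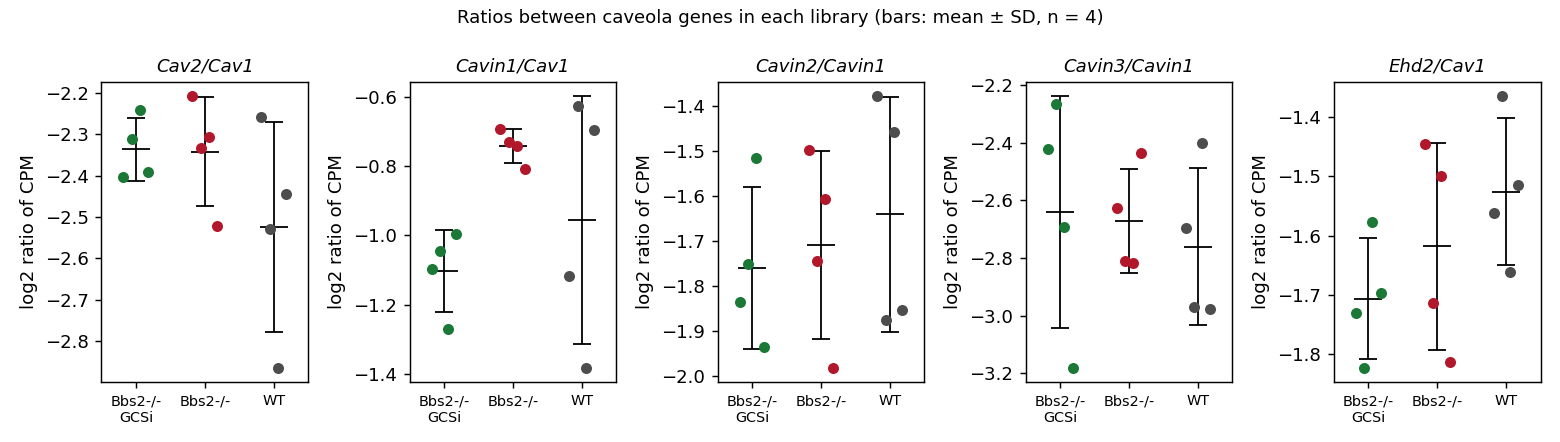
Log2 ratio of CPM between caveola genes (vertical axis) in each library, by labelled group, with bars for mean ± SD (n = 4). For Cavin1 over Cav1 the Bbs2-/- GCSi libraries lie between -1.27 and -0.996, below the Bbs2-/- libraries at -0.81 to -0.69, while in the other panels groups overlap.

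Single libraries stood high or low across several members. WT 1 was the lowest WT library for Cav1, Cavin1, Cavin2, Cavin3 and Ehd2, but the highest for Cav2. Bbs2-/- GCSi 4 was the highest of its group for every member except Cavin3. The same libraries stood at the ends for mature adipocyte markers, whose sum was 70070 CPM in Bbs2-/- GCSi 4, the highest of its group, and 46470 CPM in WT 1, the lowest of its group. Bbs2-/- 3 was the highest of its group for both the caveola and the adipocyte sum, but the other Bbs2-/- libraries were ordered differently. Bbs2-/- 1 had the lowest caveola sum (5005 CPM) beside 33276 CPM of adipocyte markers. Bbs2-/- 2 had a caveola sum of 5329 CPM beside the lowest adipocyte sum, 28219 CPM.

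Relatives of the members moved in different directions. Of 5 paralogs 4 could be tested, and 2 fell and 1 rose in Bbs2-/- against WT, while 2 rose and 1 fell in Bbs2-/- GCSi against Bbs2-/-. Of all genes tested, 39.2% and 37.2% changed in these comparisons. Cav3, the caveolin of striated muscle, had 0 to 3 counts per library and was not tested. Cavin4, the muscle cavin, had 13, 23, 24 and 19 counts in Bbs2-/- GCSi, 9, 6, 3 and 1 in Bbs2-/- and 14, 7, 21 and 14 in WT libraries. These few counts gave log2 fold changes of -1.83 (edgeR adjusted p = 0.0209) for Bbs2-/- against WT and 2.11 (edgeR adjusted p = 0.0104) for Bbs2-/- GCSi against Bbs2-/-. The first was lost without WT 3 (-1.50), Bbs2-/- 3 (-1.63), WT 2 and WT 3 together (-1.69) or the libraries with Foxj1 counts (-1.96). With only the Bbs2-/- and WT libraries, Cavin4 did not pass the filter on low counts and was not tested. Both calls thus rest on a gene that the Bbs2-/- GCSi libraries, where its mean level was highest, carried past the filter.

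Among the EHD family, which shapes endocytic membranes, Ehd4 took the opposite course to Ehd2. Ehd4 had 87.0, 89.2, 52.5 and 59.4 CPM in libraries labelled Bbs2-/- GCSi, 254, 258, 238 and 252 CPM in libraries labelled Bbs2-/- and 103, 60.9, 50.6 and 64.8 CPM in libraries labelled WT. Every Bbs2-/- library was above every other library. It rose in Bbs2-/- against WT (log2 fold change 1.84, SE 0.22, edgeR adjusted p = 0.000165) and fell in Bbs2-/- GCSi against Bbs2-/- (log2 fold change -1.80, SE 0.22, edgeR adjusted p = 0.000168). Ehd3 fell and rose as Ehd2 did, at 45.0 ± 4.78 CPM in Bbs2-/- GCSi, 29.3 ± 2.63 in Bbs2-/- and 55.9 ± 8.85 in WT libraries (SD, n = 4 each). Its log2 fold changes were -0.93 (edgeR adjusted p = 0.000228) for Bbs2-/- against WT and 0.62 (edgeR adjusted p = 0.00224) for Bbs2-/- GCSi against Bbs2-/-. Ehd1 did not pass in either (0.41, edgeR adjusted p = 0.0673, and -0.17, edgeR adjusted p = 0.444). It passed in Bbs2-/- against WT by DESeq2 (0.41), with scaling by library size (0.60), with only the groups compared (0.40), with the replicate number as a block (0.42) and without Bbs2-/- GCSi 2 or 4 (0.41 each), and in Bbs2-/- GCSi against Bbs2-/- without Bbs2-/- GCSi 4 (-0.38).

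Of 7 genes for the neck, scaffold and links of caveolae, 1 fell and 2 rose in Bbs2-/- against WT, and 1 rose and 3 fell in Bbs2-/- GCSi against Bbs2-/-. Of all genes tested, 39.2% and 37.2% changed in these comparisons. Pacsin3, a membrane-bending F-BAR protein of caveolae in muscle, was the 1 of the 7 to follow the 6 members in both. It had 35.5, 35.1, 36.8 and 57.8 CPM in Bbs2-/- GCSi, 10.6, 9.93, 9.03 and 10.6 CPM in Bbs2-/- and 22.6, 29.0, 34.9 and 42.8 CPM in WT libraries. With log2 fold changes of -1.69 (SE 0.21, edgeR adjusted p = 0.000175) and 2.04 (SE 0.21, edgeR adjusted p = 6.99e-05) it moved further than any member did. Pacsin2, the F-BAR protein found at caveola necks in many cells, differed little: it fell in Bbs2-/- GCSi against Bbs2-/- (log2 fold change -0.25, edgeR adjusted p = 0.042). That call was lost when any 1 of WT 2, WT 3, the Bbs2-/- libraries or Bbs2-/- GCSi 1 to 3 was left out (log2 fold change -0.29 to -0.22), and without WT 2 and WT 3 together (-0.24) or the libraries with Foxj1 counts (-0.19). It was also lost with no filter (-0.25), with the replicate number as a block (-0.26) and on log2 FPKM values (-0.20). In Bbs2-/- against WT it did not pass (0.23, edgeR adjusted p = 0.0557), but did by DESeq2 (0.24), with scaling by library size (0.42), and without WT 1 (0.29) or Bbs2-/- GCSi 4 (0.24).

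Ror1, a receptor that holds caveolin-1 and cavin-1 together in human lung cancer cells, rose in Bbs2-/- against WT (log2 fold change 1.21, edgeR adjusted p = 0.00215) and fell in Bbs2-/- GCSi against Bbs2-/- (log2 fold change -1.31, edgeR adjusted p = 0.00141). Its levels were low, at 3.28 ± 0.27 CPM in Bbs2-/- GCSi, 8.15 ± 0.576 in Bbs2-/- and 3.50 ± 1.40 in WT libraries (SD, n = 4 each). Plvap, which builds the diaphragms of endothelial caveolae, rose in Bbs2-/- against WT (log2 fold change 1.15, edgeR adjusted p = 0.00454), a call lost without WT 2 and WT 3 together (0.98). In Bbs2-/- GCSi against Bbs2-/- its log2 fold change was -0.58 (edgeR adjusted p = 0.0905). Pacsin1, the neuronal F-BAR protein, had at most 43 counts in a library and fell in Bbs2-/- GCSi against Bbs2-/- (log2 fold change -1.91, edgeR adjusted p = 0.0134), a call lost without Bbs2-/- 2 (-1.46), without the libraries with Foxj1 counts (-1.81) and on log2 FPKM values (-0.28). The Bbs2-/- libraries, where Pacsin1 was highest (26, 43, 11 and 13 counts), carried it past the filter on low counts. Bbs2-/- GCSi libraries held 7, 5, 4 and 7 counts of Pacsin1. In Bbs2-/- against WT its log2 fold change was 1.25 (edgeR adjusted p = 0.0693), which passed with scaling by library size (1.42) and without Bbs2-/- 3 (1.51) or Bbs2-/- 4 (1.49).

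Flna, the filamin that ties caveolae to actin, had 459, 448, 517 and 345 CPM in Bbs2-/- GCSi, 789, 719, 777 and 697 CPM in Bbs2-/- and 1109, 454, 486 and 395 CPM in WT libraries. WT 1 stood far above its group and above every Bbs2-/- library. With it, Flna did not pass in Bbs2-/- against WT (0.29, edgeR adjusted p = 0.444) or in Bbs2-/- GCSi against Bbs2-/- (-0.75, edgeR adjusted p = 0.0512). It passed in both without WT 1 (0.74 and -0.75) and without the libraries with Foxj1 counts (0.65 and -0.89). In Bbs2-/- GCSi against Bbs2-/- Flna also passed without WT 4 (-0.75), by DESeq2 (-0.75), with scaling by library size (-0.88), with only the groups compared (-0.74) and with the replicate number as a block (-0.76). Dnm2, the dynamin that cuts vesicles free, had log2 fold changes of 0.05 for Bbs2-/- against WT and 0.02 for Bbs2-/- GCSi against Bbs2-/-, neither past the threshold. With scaling by library size the first was 0.23 and passed (edgeR adjusted p = 0.0391), and the second was -0.10.

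The flotillins, which form membrane domains separate from caveolae, differed less. Neither flotillin passed in Bbs2-/- against WT (Flot1 0.10 and Flot2 -0.14, where Flot2 was 0.04 with scaling by library size), with 0 at an unadjusted edgeR p under 0.05 and 0 by DESeq2. On log2 FPKM values Flot2 passed as lower there (-0.21, limma adjusted p = 0.0459). Flot2 rose in Bbs2-/- GCSi against Bbs2-/- (log2 fold change 0.31, edgeR adjusted p = 0.0159), a call lost without Bbs2-/- 4 (0.25) and with scaling by library size (0.18). Flot1 had a log2 fold change of 0.08 there, and -0.05 with scaling by library size.

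Of 6 membrane proteins reported in caveolae, 5 fell in Bbs2-/- against WT and 5 rose in Bbs2-/- GCSi against Bbs2-/-. Of all genes tested, 19.7% fell and 18.5% rose in these comparisons. Slc2a4, the insulin-responsive glucose transporter, had 151, 158, 160.5 and 225 CPM in Bbs2-/- GCSi, 60.0, 51.2, 57.5 and 40.4 CPM in Bbs2-/- and 127, 184, 179 and 159 CPM in WT libraries. Its log2 fold changes were -1.64 (edgeR adjusted p = 7.6e-05) for Bbs2-/- against WT and 1.73 (edgeR adjusted p = 5.88e-05) for Bbs2-/- GCSi against Bbs2-/-. Slc2a4 is also on the mature adipocyte list below.

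Aoc3, an amine oxidase of the adipocyte surface, averaged 1812 ± 399.8 CPM in Bbs2-/- GCSi, 665 ± 133 in Bbs2-/- and 2075 ± 310.0 in WT libraries (SD, n = 4 each). Its log2 fold changes were -1.64 (edgeR adjusted p = 0.000129) for Bbs2-/- against WT and 1.45 (edgeR adjusted p = 0.000226) for Bbs2-/- GCSi against Bbs2-/-. The insulin receptor gene Insr moved less, by log2 fold changes of -0.59 (edgeR adjusted p = 0.0025) and 0.47 (edgeR adjusted p = 0.0095) in the same comparisons. Adcy6, an adenylyl cyclase, had -0.65 (edgeR adjusted p = 0.00181) and 0.77 (edgeR adjusted p = 0.000748).

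Nos3, the endothelial nitric oxide synthase, averaged 83.7 ± 9.95 CPM in Bbs2-/- GCSi, 34.9 ± 6.28 in Bbs2-/- and 52.2 ± 15.8 in WT libraries (SD, n = 4 each). It rose in Bbs2-/- GCSi against Bbs2-/- (log2 fold change 1.26, edgeR adjusted p = 0.000572). It fell in Bbs2-/- against WT (log2 fold change -0.58, edgeR adjusted p = 0.0332), a call lost without WT 3, WT 4, or Bbs2-/- 1, 2 or 4, with log2 fold changes between -0.62 and -0.35. It was also lost without WT 2 and WT 3 together (-0.70), without the libraries with Foxj1 counts (-0.45), with scaling by library size (-0.40), with no filter (-0.55) and with only the groups compared (-0.59). Cd36, the fatty acid transporter, was the exception among the 6, at 4207 ± 220.2 CPM in Bbs2-/- GCSi, 4339 ± 625 in Bbs2-/- and 4505 ± 192 in WT libraries (SD, n = 4 each). Its log2 fold changes were -0.05 (interval -0.32 to 0.21) for Bbs2-/- against WT, or 0.12 with scaling by library size, and -0.04 (interval -0.31 to 0.22) for Bbs2-/- GCSi against Bbs2-/-.

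Against WT, Bbs2-/- GCSi libraries gave a call for 0 of these related genes by edgeR, where 0.257% of all genes changed. Ehd3, Plvap and Nos3 had an unadjusted p under 0.05, and DESeq2 called Nos3 (log2 fold change 0.69 there, 0.68 by edgeR with an adjusted p of 0.224).

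**Figure D4:**
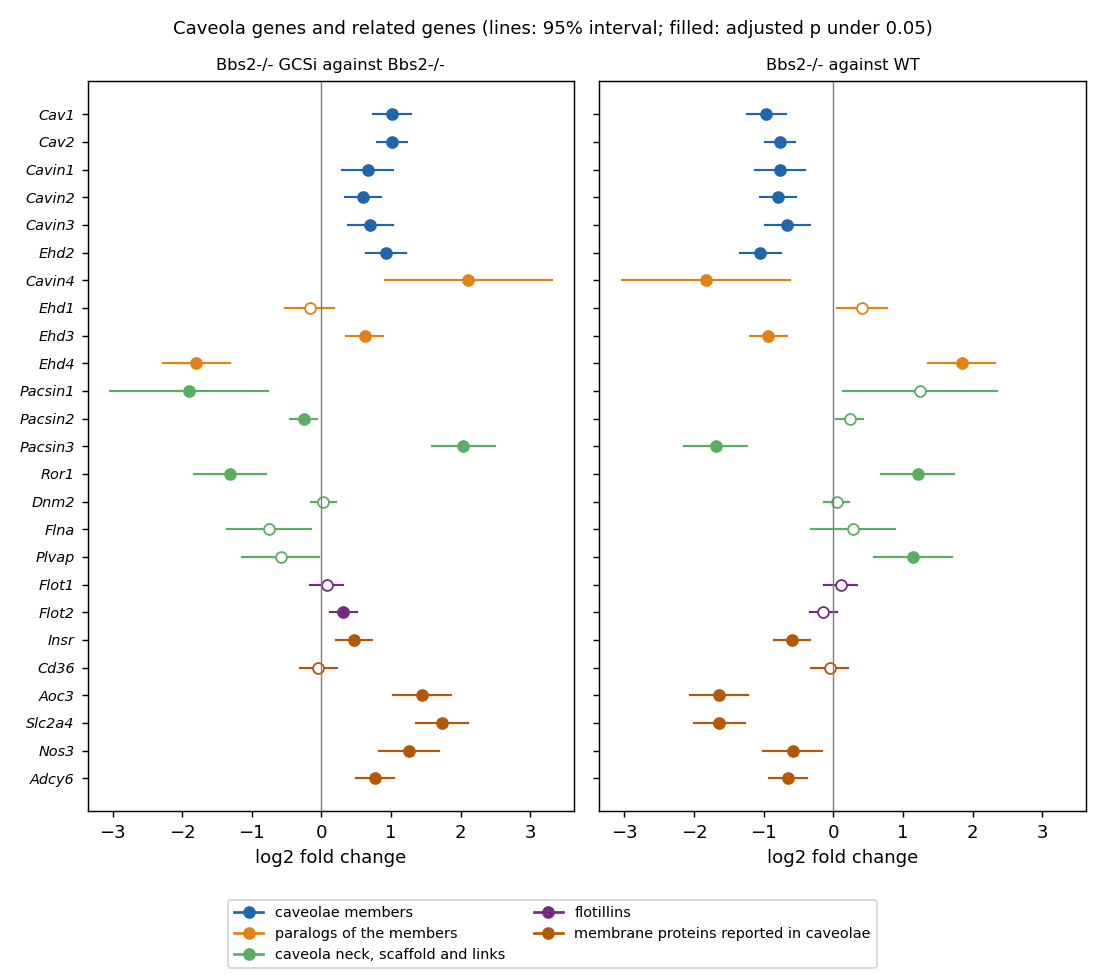
Log2 fold change (horizontal axis) of the caveola genes and 19 related genes, Bbs2-/- GCSi against Bbs2-/- on the left and Bbs2-/- against WT on the right, with lines for the 95% interval and filled points for an edgeR adjusted p under 0.05. Colours give the gene list, and Ehd4 (-1.80 and 1.84) lies on the other side of 0 from Ehd2 (0.93 and -1.05).

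Mature adipocyte markers moved in the same directions as these genes. Of 20 mature adipocyte markers, 16 fell in Bbs2-/- against WT (all genes 19.7%) and 17 rose in Bbs2-/- GCSi against Bbs2-/- (all genes 18.5%). Their median log2 fold changes were -1.22 and 1.03. Their sum was 50511 to 70070 CPM in Bbs2-/- GCSi, 28219 to 34826 in Bbs2-/- and 46470 to 74081 in WT libraries, with no marker at 0. It set Bbs2-/- apart from both other groups, as each caveola gene did. Bbs2-/- GCSi and WT libraries overlapped in this sum, as for every caveola gene except Cav2. Of 15 endothelial markers, 2 fell in Bbs2-/- against WT (all genes 19.7%) and 9 rose in Bbs2-/- GCSi against Bbs2-/- (all genes 18.5%). Their median log2 fold changes were -0.31 and 0.52. Their sum was 1876 to 2530 CPM in Bbs2-/- GCSi, 1069 to 1736 in Bbs2-/- and 1378 to 2140 in WT libraries, with overlap between Bbs2-/- and WT and none at 0. The part of adipocyte or endothelial content in the levels of the caveola genes was not tested.

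Smooth muscle and pericytes, which also form caveolae, had 6 of 12 markers that fell and 2 that rose in Bbs2-/- against WT, and 3 that rose and 1 that fell in Bbs2-/- GCSi against Bbs2-/-. Their sum was 1180.4 to 1580.04 CPM in Bbs2-/- GCSi, 873 to 1289.5 in Bbs2-/- and 1399 to 2708 in WT libraries. Of 12 fibroblast and preadipocyte markers, 4 rose and 1 fell in Bbs2-/- against WT, and 1 rose and 5 fell in Bbs2-/- GCSi against Bbs2-/-. Their sum, led by Gsn, was 7774 to 12057 CPM in Bbs2-/- GCSi, 5423 to 7160.5 in Bbs2-/- and 9946 to 12322 in WT libraries. Gsn alone averaged 6546 CPM in Bbs2-/- GCSi, 2993 in Bbs2-/- and 8468 in WT libraries. The sum thus ran opposite to the median log2 fold changes of these markers, 0.48 for Bbs2-/- against WT and -0.46 for Bbs2-/- GCSi against Bbs2-/-. No marker of either list was at 0, and their part was not tested. Of all genes tested, 39.2% changed in Bbs2-/- against WT and 37.2% in Bbs2-/- GCSi against Bbs2-/-.

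Macrophage markers ran the other way. Of 12, 10 rose in Bbs2-/- against WT and 11 fell in Bbs2-/- GCSi against Bbs2-/-, and their sum was 788 to 1936 CPM in Bbs2-/- GCSi, 6315 to 8969.9 in Bbs2-/- and 801 to 2782 in WT libraries, with none at 0. Their part in the share of reads left for the caveola genes was not tested. Of all 15968 genes tested, 3124 rose in Bbs2-/- against WT and 3000 fell in Bbs2-/- GCSi against Bbs2-/-. Of 8 mesothelial markers 2 fell in Bbs2-/- against WT (all genes 19.7%). In Bbs2-/- GCSi against Bbs2-/- 0 passed by edgeR (all genes 37.2%), with 1 at an unadjusted p under 0.05 and 1 by DESeq2. Skeletal muscle markers were sparse, with Myh7 at no more than 2 counts in a library and Ckm at 0 in 6 of 12 libraries. In Bbs2-/- against WT 1 of the 4 tested, Acta1, fell (all genes 19.7%). Of 9 ciliated epithelium markers tested, 3 fell in Bbs2-/- against WT (all genes 19.7%). In Bbs2-/- GCSi against Bbs2-/- 2 rose (all genes 18.5%). Epididymal markers summed to at most 0.362 CPM in Bbs2-/- GCSi and 0.449 in Bbs2-/- libraries, against 1083 CPM in WT 1.

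**Figure D5:**
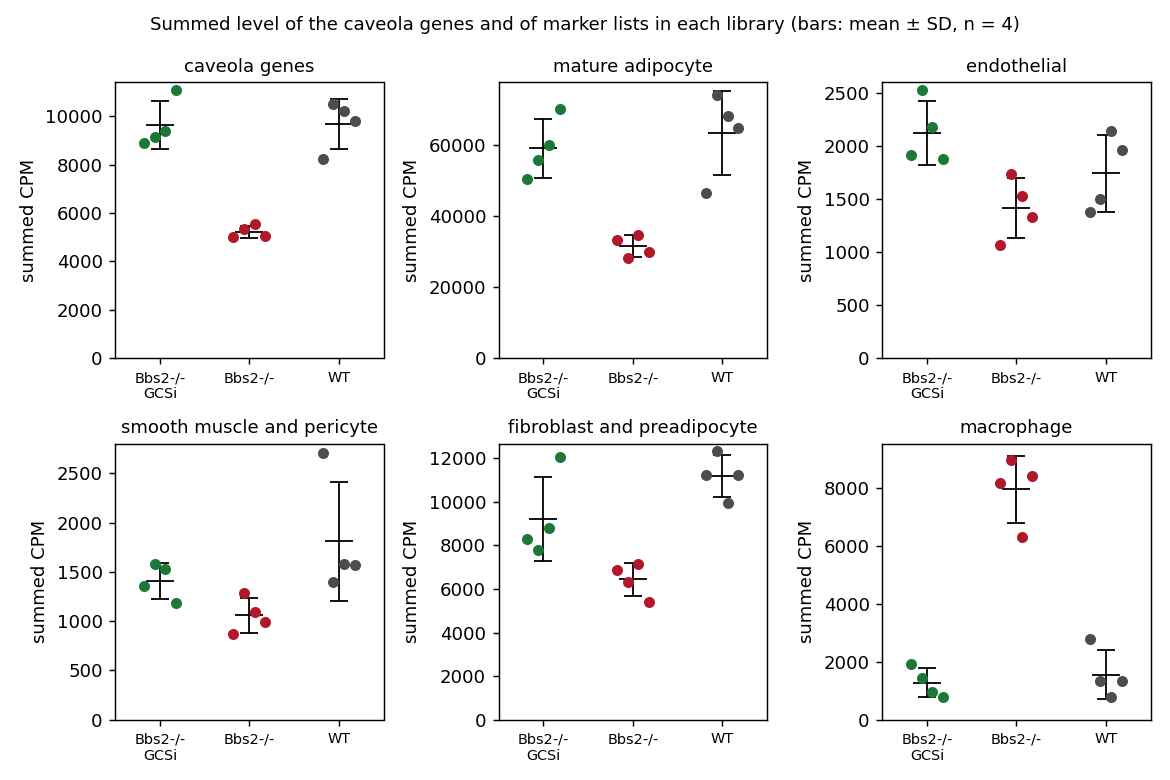
Summed CPM (vertical axis, starting at 0) of the caveola genes and of 5 marker lists in each library, by labelled group, with bars for mean ± SD (n = 4). The adipocyte sum is 28219 to 34826 CPM in the Bbs2-/- libraries and at least 46470 in each other library, and the macrophage sum is 6315 to 8969.9 CPM in the Bbs2-/- libraries and at most 2782 in each other library.

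For each member, the 3 protein-coding genes with the most similar course over the 12 libraries were found among 9863 genes, by the root-mean-square difference in log2 CPM after centring. This measure takes in the differences between groups, and the points share libraries and depth, so it is a description. Nearest to Cav1 were Ginm1 (0.0893), Smo (0.0967), the signal transducer of the Hedgehog pathway, and Phykpl (0.0993). Around Ehd2 lay Pgm1 (0.0730), Tshr (0.0808), the thyrotropin receptor, and Mllt3 (0.0882). For Cavin2 they were Hsdl2 (0.0817), Agpat3 (0.0902), an acyltransferase of phospholipid synthesis, and Mfn2 (0.0925), which fuses mitochondria.

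Cav2 had Fbxl4 (0.120), Pfkm (0.123), a phosphofructokinase of glycolysis, and Gnb5 (0.131). Cavin1 had Pex19 (0.112), a peroxisome assembly factor, and Sgta (0.124). Cavin3 had Gamt (0.115), which makes creatine, Pop5 (0.126) and Churc1 (0.128). Members were not each other's nearest genes: Ehd2 was 25th from Cav1 (0.139) and Cav2 was 92nd (0.172), although Cav2 and Cav1 are neighbours on the chromosome. Cavin3 lay farthest from the rest, at 0.265 from Cavin1 and 0.319 from Ehd2.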

How the data were processed

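The authors deposited a table of estimated counts per gene, unscaled, in which 92.96 to 94.17% of values were whole within 1e-06, and a table of log2 FPKM values with the same upper quartile in every library. Per the labels' protocols, RNA was extracted with TRIzol and RNeasy columns and libraries were stranded mRNA (Illumina TruSeq). Per the submitters' processing notes, reads went to mm10. How they were aligned and counted, on which strand setting and annotation, is not given in the sources used here; overlapping and near-identical genes are therefore uncertain.

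Expected counts were rounded. In R 4.3.3, edgeR 4.0.16 was run with filterByExpr by group, TMM, a robust quasi-likelihood fit of all 12 libraries with group as the only term, and Benjamini-Hochberg adjustment over 15968 genes at 0.05. The test was also run on simulated counts that gave every gene the same biological variation, so that run does not assure the test for these data. Its values are not reported here. CPM used TMM-scaled library sizes; ratios used log2 CPM with a prior count of 2 and an exact permutation test. The common biological coefficient of variation was 0.29. Library totals were 16317865 to 20224200, and chi-square values between replicate libraries (16.9 to 84.9 per degree of freedom) showed no repeat of a library. Alternatives used DESeq2 1.42.0 and limma 3.58.1. Symbols and coordinates came from GENCODE on the same build, where 52207 of 53431 identifiers were found; promoters came from RefSeq.

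Named genes were the members, Bbs2, every gene of the 4 lists of caveola-related genes, up to 3 leading genes of each marker list (mature adipocyte, endothelial, smooth muscle and pericyte, fibroblast and preadipocyte, mesothelium, macrophage, skeletal muscle, ciliated epithelium, epididymis), and the 3 protein-coding genes nearest each member (mean log2 CPM 3 or more), of which 1 is not reported here. Foxj1 and Myh7 were named after their values were seen. The members and lists were chosen with earlier results of these data known.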

Additional observations from a re-analysis of the deposited data

Results flagged for a closer look

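Among the 6 caveola genes, the related genes and the 5 ratios between members, each in 3 groups, 5 of 90 groups held 1 library apart from the other 3, by Dixon's test of its gap to the nearest library against the group's range. Chance alone sets about 1 in 20 groups apart in this way. Cavin3 in Bbs2-/- 4 was 233 CPM, against 193 to 199 in the other Bbs2-/- libraries. Pacsin3 was 57.8 CPM and Slc2a4 was 225 CPM in Bbs2-/- GCSi 4, against 35.1 to 36.8 and 151 to 160.5 in the other libraries of that group. Flna was 1109 CPM in WT 1, against 395 to 486 in the other WT libraries. Plvap was 60.6 CPM in WT 4, against 33.4 to 37.0 in the other WT libraries.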

How the results depend on the processing

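The 6 caveola genes fell in Bbs2-/- against WT and rose in Bbs2-/- GCSi against Bbs2-/- under each of the 22 alternatives, except that Cavin3 did not pass in Bbs2-/- against WT without WT 2 and WT 3 (-0.49). In Bbs2-/- GCSi against WT 0 of 6 were called under each alternative run. Signs turned there for Ehd2 without WT 2 and WT 3 (0.048), and for Cav1 (-0.00058) and Cavin3 (-0.030) without the libraries with Foxj1 counts; leaving out 1 library at a time, Cav1 ran from -0.020 to 0.14, Cavin1 from -0.22 to 0.019 and Cavin3 from -0.085 to 0.12. With replicate number as a block the same 6 and 6 members were called, and 0 in Bbs2-/- GCSi against WT. The labels do not say that the numbers pair libraries. Same-numbered deviations correlated by 0.0999 to 0.308 in Bbs2-/- GCSi against Bbs2-/-, where 6 of 8 libraries correlated best with their own number, and by -0.149 to 0.278 in the comparisons with WT, where 0 of 8 (Bbs2-/-) and 2 of 8 (Bbs2-/- GCSi) did. The block gave 6012, 5680 and 9 calls over all genes, against 6263, 5947 and 41 without it, in Bbs2-/- against WT, Bbs2-/- GCSi against Bbs2-/- and Bbs2-/- GCSi against WT. Of the related genes DESeq2 called 1 in Bbs2-/- GCSi against WT, and counts of related genes called ran from 9 to 13 and from 11 to 14 in the other comparisons with 1 library left out. Other signs turned as follows, in log2 units, and the cause was not tested. With scaling by library size: in Bbs2-/- against WT Flot2 0.039 and Cd36 0.12; in Bbs2-/- GCSi against Bbs2-/- Dnm2 -0.10 and Flot1 -0.052; against WT Pacsin2 0.031. With log2 FPKM values: Dnm2 -0.024 for Bbs2-/- against WT, and for Bbs2-/- GCSi against Bbs2-/- Cd36 0.019 and the ratio Cav2/Cav1 -0.00415. Without WT 2 and WT 3: Flna -0.0054 in Bbs2-/- against WT, and Pacsin2 0.0026, Ehd4 -0.20 and Aoc3 0.0044 in Bbs2-/- GCSi against WT. Without a filter Pacsin2 was 0.0042 there. Without the libraries with Foxj1 counts: Dnm2 -0.0037 in Bbs2-/- against WT, Cd36 0.0044, Cav2/Cav1 -0.0094 and Cavin3/Cavin1 -0.051 in Bbs2-/- GCSi against Bbs2-/-, and Pacsin2 0.028, Ror1 0.21 and Cavin3/Cavin1 -0.038 in Bbs2-/- GCSi against WT. With 1 library left out, Cd36 ran from -0.14 to 0.061 and Cavin2/Cavin1 from -0.15 to 0.024 in Bbs2-/- against WT; Dnm2 from -0.039 to 0.057, Cd36 from -0.15 to 0.037, Cav2/Cav1 from -0.054 to 0.050, Cavin2/Cavin1 from -0.14 to 0.019 and Cavin3/Cavin1 from -0.093 to 0.21 in Bbs2-/- GCSi against Bbs2-/-; and Ehd4 from -0.081 to 0.29, Pacsin2 from -0.075 to 0.035, Ror1 from -0.28 to 0.20, Slc2a4 from -0.053 to 0.17 and Cavin3/Cavin1 from -0.0046 to 0.30 in Bbs2-/- GCSi against WT. Scaling by library size moved the median of all genes to 0.16 in Bbs2-/- against WT and -0.10 in Bbs2-/- GCSi against Bbs2-/-, and the share of calls that rose to 69.0% (49.9% with TMM) and 35.5% (49.6% with TMM); relative to those medians the members kept their directions. Over all genes, Bbs2-/- against WT gave 3417 calls without WT 2 and WT 3 (6263 with them), and Bbs2-/- GCSi against WT gave 41, but 281 by DESeq2, 24 with log2 FPKM values, 2 with only the groups compared, 2 without the libraries with Foxj1 counts, 1 without WT 2 and WT 3 and 3 to 49 with 1 library left out.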
